A study of Mus musculus with 2 samples.

Results

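LIN28A and LIN28B, the partners through which they hold back the microRNA let-7, and the genes that let-7 represses form the subject here. They are represented by 9 genes of the 50508 in the deposited table, found by symbol: Lin28a, Lin28b, Trim71, Dis3l2, Hmga1, Hmga2, Igf2bp1, Igf2bp2 and Igf2bp3. The cells were E14 mouse embryonic stem cells of strain 129/Ola at passages 15 to 18, grown on gelatin in medium with 15% fetal bovine serum and 1000 U/ml of LIF, the cytokine that supports self-renewal. They received a scramble siRNA or an siRNA against Mettl8 with a lipid reagent, and RNA was taken 72 h later. Triplicates are mentioned in the series text, yet each group has 1 sample and 1 column of values, and whether cultures were pooled is not stated. No value therefore has a replicate error, no test between groups could be made, and every interval covers counting error only. Values are FPKM, fragments per kilobase of gene length scaled to the depth of the library. Comparisons of level between genes depend on the length used. Among the 9 genes the deposited length is up to 2.82 times that of the longest complete coding transcript.

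Mettl8, the gene the siRNA was meant to lower, stood at 0.67 FPKM where the label reads scramble siRNA and at 100.3 FPKM where it reads Mettl8 siRNA, so the targeted gene goes against its label and the labels alone name the libraries here. Pairs of values give the scramble siRNA label first and the Mettl8 siRNA label after it. "Higher" and "lower" refer to the library labelled Mettl8 siRNA, with the other as the base. The reads assigned to genes came to 22.2 M and 21.4 M. All 17 defining markers of embryonic stem cells had a mean of at least 1 FPKM, with summed levels of 1641 and 1596 FPKM. Of 26 markers of differentiated cells, 9 did, and the 26 summed to 56.6 and 59.6 FPKM. No marker of either list was at 0 in both libraries.

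LIN28 proteins bind the terminal loop of the let-7 precursor through a cold shock domain and a pair of zinc knuckles, the latter reading a GGAG motif. They block the cut by DICER and recruit a terminal uridylyl transferase, whose U tail marks the precursor for the exonuclease DIS3L2. Mature let-7 in turn represses Lin28a, Lin28b, Trim71, Hmga2 and the Igf2bp genes through seed matches in their 3′ untranslated regions, so that stem cells rich in LIN28 and differentiated cells rich in let-7 hold opposite states.

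The mature let-7 sequences are shown because their shared seed defines the target sites in the genes described here. RefSeq (GRCm38.p6) gives 9 different 5′ arm sequences for the mouse family, and all 9 have the same seed, bases 2 to 8, in capitals.

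mmu-let-7a-5p: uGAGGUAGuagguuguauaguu

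mmu-let-7b-5p: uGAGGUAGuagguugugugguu

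mmu-let-7c-5p: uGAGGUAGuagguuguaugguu

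mmu-let-7d-5p: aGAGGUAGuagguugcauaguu

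mmu-let-7e-5p: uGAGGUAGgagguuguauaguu

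mmu-let-7f-5p: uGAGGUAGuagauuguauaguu

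mmu-let-7g-5p: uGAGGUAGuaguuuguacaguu

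mmu-let-7i-5p: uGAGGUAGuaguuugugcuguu

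mmu-miR-98-5p: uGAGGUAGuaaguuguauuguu

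The LIN28 motif GGAG, read on the RNA strand only, stood between the arms in 9 of 12 let-7 family hairpins. The hairpins of Mirlet7b, Mirlet7c-2 and Mir98 do not hold these letters anywhere. For comparison, 44.5% of the 1005 mouse hairpins in the RefSeq table hold GGAG somewhere. Below are the 3 hairpins with the most reads in these libraries, with the motif in capitals, and the hairpin of Mir98, which lacks it. They lie at chr13:48536012-48536114 (minus strand), chr13:48537829-48537917 (minus), chr9:106178840-106178927 (plus) and chrX:151913214-151913321 (plus).

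Mirlet7d: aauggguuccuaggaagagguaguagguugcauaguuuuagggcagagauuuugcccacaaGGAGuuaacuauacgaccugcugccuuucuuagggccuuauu

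Mirlet7f-1: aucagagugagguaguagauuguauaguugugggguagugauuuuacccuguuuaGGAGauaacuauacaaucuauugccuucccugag

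Mirlet7g: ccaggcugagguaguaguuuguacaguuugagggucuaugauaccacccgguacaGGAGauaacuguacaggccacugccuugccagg

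Mir98: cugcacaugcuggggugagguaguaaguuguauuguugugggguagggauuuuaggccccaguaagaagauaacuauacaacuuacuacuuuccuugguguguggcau

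In the 3′ untranslated regions, 8 of the 9 genes held at least 1 let-7 seed match and 7 held at least 1 8mer, against 14.6% and 2.99% of 20846 protein-coding genes. An 8mer here is CTACCTCA, a 7mer-m8 is CTACCTC without the final A, and a 7mer-A1 is TACCTCA without the leading C, each searched on the transcript strand of the longest complete coding transcript in GENCODE M21 and counted once. The median region was 2775 bases long in the 9 genes and 937 over all coding genes, and longer regions hold more matches. Among regions of 0.8 to 1.25 times its own length, a match stood in 28.2% for Hmga2, 27.4% for Lin28a, 39.4% for Lin28b, 47.2% for Trim71 and 53.5% for Igf2bp1. Hmga2, an architectural chromatin factor and the best known let-7 target, had the densest set, 7 matches in 3014 bases or 2.32 per kb. Regions like its own in length held 0.348 on average. Trim71 had 6 in 5512 bases, Lin28b 5 in 4445 bases and Igf2bp1 5 in 6337 bases. Lin28a and Igf2bp2 had 2 each, and Igf2bp3 and Hmga1 had 1 each. The region of Dis3l2, 350 bases long, had 0, and 4.67% of regions like it in length held a match. A match is a description of the letters and not a measured site. The 9 genes were listed as known let-7 targets or regulators, so the share is a description.

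Sites are shown as 30 bases of the transcript strand with the matching letters in capitals, to let the seed be laid against them. The Lin28a sites lie at chr4:134005187-134005216 and chr4:134004549-134004578. The site of Lin28b begins 36 bases after the stop codon, at chr10:45381020-45381049. The pair from Trim71 at chr9:114509045-114509074 and chr9:114509019-114509048 starts 26 bases apart. That of Hmga2 begins 58 bases after the stop codon, at chr10:120364222-120364251. Those of Igf2bp1, Igf2bp2 and Igf2bp3 lie at chr11:95961776-95961805, chr16:22059471-22059500 and chr6:49086785-49086814. All are on the minus strand. Hmga1 has only a 7mer-m8, at chr17:27563272-27563301 on the plus strand.

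Lin28a, first 8mer: ggagtgcacagcctgttgaaCTACCTCAtt

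Lin28a, other 8mer: gctttgagatcgccacaaacCTACCTCAct

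Lin28b, 8mer: ccttcacccgggcgggaagtCTACCTCAtg

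Trim71, upstream 8mer of the pair: ttttgtttagtatggattttCTACCTCAat

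Trim71, downstream 8mer of the pair: caattttggcaaaaagttgtCTACCTCAcg

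Hmga2, 8mer: ggggcgccgacattcaatttCTACCTCAgc

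Igf2bp1, first 8mer: gcagtgctgtgcgaagtaaaCTACCTCAag

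Igf2bp2, 8mer: gaaaaacacacaaataaaagCTACCTCAgg

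Igf2bp3, 8mer: aaacgtgcatttttactcaaCTACCTCAgg

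Hmga1, 7mer-m8: tcttctcctctgttcacaaaCTACCTCtgg

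**Figure D1:**
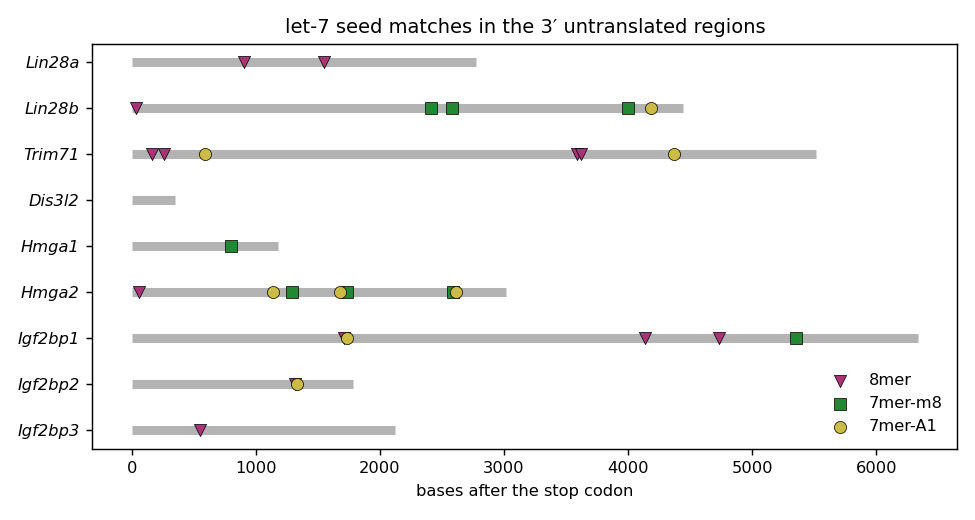
Positions of let-7 seed matches (symbols by class) along the annotated 3′ untranslated region (grey bar) of each gene, in bases after the stop codon. Hmga2 carries 7 matches in 3014 bases, Trim71 4 of its 6 as 8mers, and Dis3l2 none in 350 bases.

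The 9 genes spanned 124.9-fold and 128.2-fold in level and stood in the same order in both. Per length of the longest complete coding transcript the order was unchanged and the span was 81.2-fold and 83.3-fold. From the top the order was Igf2bp1, Trim71, Lin28a, Hmga1, Igf2bp3, Lin28b, Igf2bp2, Dis3l2 and Hmga2. Neighbours in this order had counting intervals that did not overlap in either library, although Igf2bp1 exceeded Trim71 by only 1.06-fold in each. Whether neighbours this close differ beyond culture-to-culture spread was not measured. In each of the LIN28, HMGA and IGF2BP families 1 gene gave most of the summed level: Lin28a 92.8% and 92.9%, Hmga1 98.6% and 98.6%, and Igf2bp1 83.1% and 82.6%.

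**Figure D2:**
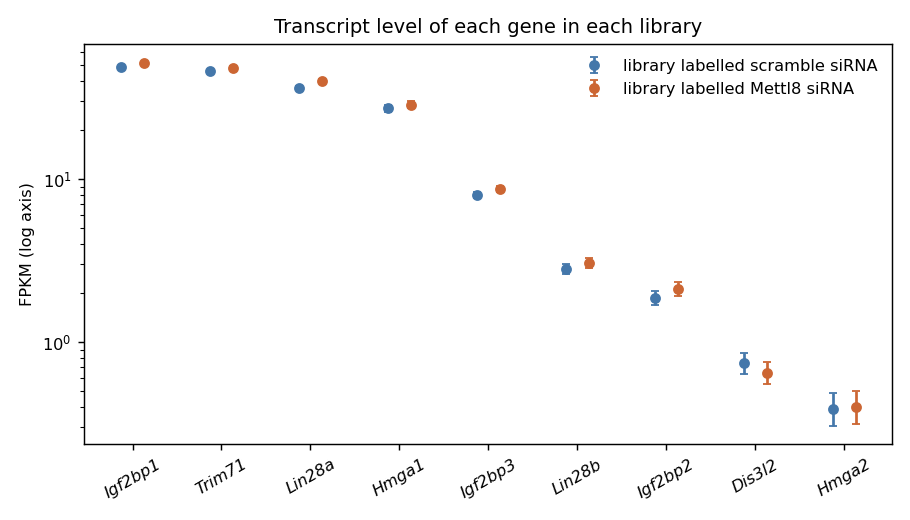
FPKM of each gene (log axis) in the library labelled scramble siRNA (blue) and the library labelled Mettl8 siRNA (orange), with exact Poisson intervals at 95%. Levels run from 48.7 and 51.3 FPKM for Igf2bp1 to 0.39 and 0.40 FPKM for Hmga2, in 1 order in both libraries.

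Lin28a, the LIN28 protein gene of mouse embryonic stem cells, was 36.1 FPKM with an exact Poisson interval of 35.02 to 37.2 and 40.1 FPKM with one of 39.0 to 41.3, from 4108 and 4460 reads. The ratio was 1.11 (1.06 to 1.16, exact Clopper-Pearson interval) and the difference 0.15 on the log2(FPKM + 1) scale. On this scale it was the largest difference among the 9 genes, but with 0.1 in place of 1 Igf2bp2 (0.18) and Dis3l2 (-0.16) exceeded it in size. With 1 added, 16.3% of the 9965 protein-coding genes with a mean of at least 1 FPKM differed by as much as Lin28a or more. Lin28a ranked 607 and 545 among the 21490 protein-coding genes of the table. The gene lies at chr4:134003330-134018841 on the minus strand (GRCm38, ENSMUSG00000050966.9), and 234 of its exon bases are shared with the antisense transcript Gm13061 (9.58 and 8.07 FPKM).

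Lin28b, the paralog best known from tumours and fetal tissues, was 2.81 FPKM (2.61 to 3.02) and 3.05 FPKM (2.84 to 3.27). The ratio was 1.09 with an interval of 0.979 to 1.20, which holds 1. Lin28a exceeded Lin28b 12.9-fold (11.9 to 13.9) and 13.2-fold (12.2 to 14.2). That gap depends on gene length, since the deposited length is that of all annotated exons joined, 9065 bases for Lin28b, whereas its longest complete coding transcript has 5402. Per length of such transcripts the gap was 8.73-fold and 8.94-fold. Lin28b lies at chr10:45376620-45486395 on the minus strand (ENSMUSG00000063804.8).

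Dis3l2, the exonuclease gene that acts on U-tailed let-7 precursors, was among the lowest of the 9 and the only one lower in the library labelled Mettl8 siRNA. Its level was 0.74 FPKM (0.636 to 0.852) and 0.65 FPKM (0.554 to 0.759), from 187 and 161 reads. The ratio was 0.878 with an interval of 0.709 to 1.09, which holds 1. Its deposited length, 8901 bases, is 2.82 times that of its longest complete coding transcript, per whose length the level would be 2.09 and 1.83 FPKM. Dis3, the catalytic exosome subunit of the same enzyme family, exceeded Dis3l2 45.6-fold and 56.3-fold as deposited, but 11.7-fold and 14.4-fold per transcript length. Dis3l2 lies at chr1:86703808-87050095 on the plus strand (ENSMUSG00000053333.15).

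The uridylyl transferases that LIN28 recruits were both measured under their older symbols. Zcchc11, which encodes TUT4, was 5.66 and 5.55 FPKM, and Zcchc6, which encodes TUT7, was 6.32 and 5.93 FPKM with a ratio of 0.938 (0.857 to 1.03). Both thus stood above Dis3l2 and below Lin28a in each library. Of the 12 measured genes of precursor tailing and decay (of 13 in the table), 8 were higher and 4 lower, beside 54.1% of all measured genes higher. Their median was 0.060, beside 0.013 for all measured genes. The list also takes in general RNA tailing and decay enzymes, so its count does not describe the LIN28 route alone. The highest differences of the list were those of the poly(A) polymerase gene Papd7 (3.96 and 4.45 FPKM), the exonuclease gene Eri1 (4.82 and 5.35) and Papd4 (13.7 and 14.9). Zcchc6, Papd5 (11.95 and 11.4 FPKM) and the nuclear exonuclease gene Xrn2 (20.1 and 19.3) stood lowest.

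Trim71, also called LIN41, is an RNA-binding ubiquitin ligase gene of early development and a classical let-7 target. It was 46.2 FPKM (45.4 to 47.0) and 48.2 FPKM (47.4 to 49.1), from 12263 and 12521 reads. The ratio was 1.04 (1.02 to 1.07) and the difference 0.062, which 55.5% of measured coding genes equalled or passed. Trim71 ranked 452 and 436 among coding genes, and it carries 4 let-7 8mers in its 3′ region. It lies at chr9:114507133-114564369 on the minus strand (ENSMUSG00000079259.2), with 135 exon bases shared with C130032M10Rik on the other strand (25.3 and 24.2 FPKM). Of 4 measured TRIM-NHL genes, Trim71 included, 2 were higher, 2 were lower and the median was -0.0094, or 0.049 when the libraries were scaled to the same FPKM sum. Trim2 was 0.96 and 1.05 FPKM, Trim3 2.50 and 2.31, and Trim32 3.18 and 2.85, all far below Trim71. Among 11 measured partners and reported messages of TRIM71, Trim71 itself included, 6 were higher and 5 lower, beside 54.1% of all measured genes higher. Their median was 0.025. Cdkn1a, a cell cycle inhibitor gene whose message TRIM71 is known to repress, was 13.2 and 11.1 FPKM, or 0.841 as a ratio (0.760 to 0.932). The 3 highest differences of that list were those of Cdk6 (2.05 and 2.50 FPKM), Shcbp1 (5.31 and 6.06) and Xiap (5.34 and 6), and beside Cdkn1a the lowest were those of Rbl2 (2.50 and 2.29) and Ago2 (7.28 and 6.91).

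The HMGA genes encode AT-hook proteins that bend DNA. Hmga1 was 27.2 FPKM (25.8 to 28.6) and 28.6 FPKM (27.2 to 30.002), a ratio of 1.05 (0.979 to 1.13). The treatment of multiply mapped reads is not given in the sources used here, so the level of Hmga1 is uncertain to the extent that its reads fit more than 1 place. Hmga1 lies at chr17:27556497-27563674 on the plus strand (ENSMUSG00000046711.16), and 102 of its exon bases overlap AI413582 on the other strand (3.37 and 2.67 FPKM).

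Hmga2, at chr10:120361275-120476469 on the minus strand (ENSMUSG00000056758.14), was the lowest of the 9 genes in both libraries, with 0.39 FPKM (0.306 to 0.488) and 0.40 FPKM (0.313 to 0.499). Each value rests on 75 reads, so the levels differ only through the depth used to scale them. Hmga2 shares 140 exon bases with 1700006J14Rik on the other strand, listed at 0.18 and 0.17 FPKM, or 15 and 14 reads. The ratio of 1.03 has an interval of 0.733 to 1.43, so a difference of up to that size was not detectable at this depth. Hmga1 exceeded Hmga2 69.7-fold (55.4 to 89.3) and 71.4-fold (56.9 to 91.7) as deposited, and 39.0-fold and 39.9-fold per transcript length. The HMGA, HMGN and HMGB list had 7 measured genes with a median of 0.069. Hmgn1 was 71.3 and 74.6 FPKM, Hmgb1 29.99 and 32.6, Hmgb2 67.2 and 71.6, Hmgb3 4.36 and 4.97, and Hmgn2 10.2 and 10.6.

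The IGF2BP genes encode RNA-binding proteins that stabilise and transport fetal messages. Igf2bp1 was the highest of the 9 genes, 48.7 FPKM (47.9 to 49.6) and 51.3 FPKM (50.4 to 52.1), from 13426 and 13809 reads. The ratio was 1.05 (1.03 to 1.08). Igf2bp1 lies at chr11:95957163-96005940 on the minus strand (ENSMUSG00000013415.9). Within its exons and on the same strand lies Mir3063, a 92-base hairpin listed at 192.5 and 184.0 FPKM, or 504 and 471 reads. Reads over this stretch belong to both annotations, and how the authors assigned them is not given in the sources used here.

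Igf2bp3 was 8.02 FPKM (7.66 to 8.39) and 8.68 FPKM (8.30 to 9.07), a ratio of 1.08 (1.02 to 1.15). It lies at chr6:49085223-49214957 on the minus strand (ENSMUSG00000029814.10). It shares 1529 exon bases, 18.7% of its exon length, with Malsu1 on the other strand (9.75 and 9.34 FPKM). Without a known strand setting, reads there cannot be told apart. Igf2bp2 was 1.86 FPKM (1.68 to 2.06) and 2.12 FPKM (1.92 to 2.33) at chr16:22059009-22163299 on the minus strand (ENSMUSG00000033581.17). Its ratio of 1.14 (0.989 to 1.31) was the highest of the 9 genes but holds 1. Igf2bp1 exceeded Igf2bp3 6.07-fold and 5.91-fold, and Igf2bp2 26.2-fold and 24.2-fold. Per transcript length these gaps were 3.74-fold and 3.64-fold, and 16.6-fold and 15.3-fold. Of 11 measured transcripts known to be bound by IGF2BP proteins, 7 were higher and 4 lower, beside 54.1% of all measured genes higher. Their median was 0.068. The mitotic motor gene Kif11 (25.3 and 29.3 FPKM), Myc (4.91 and 5.74) and Rac1 (17.1 and 19.2) stood highest in difference, and Ctnnb1 (10.9 and 10.3), H19 (3.72 and 3.56) and Mapk4 (1.86 and 1.77) lowest. Igf2, the message that gave the family its name, was 0.06 FPKM in both.

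Across all 9 genes, 8 were higher and 1 lower in the library labelled Mettl8 siRNA, where 54.5% of the measured protein-coding genes were higher. A mean of at least 1 FPKM, the filter behind these shares, was passed by 7 of the 9 and not by Dis3l2 and Hmga2. Hmga2 was lower, and 7 of 9 higher, when the median difference of measured genes was set to 0. None of the 9 reached 1.5-fold after adding 1 FPKM, a size that 0.100% of measured protein-coding genes and 2.11% of all measured genes reached. All 9 differences lay inside the central 95% of those coding genes, -0.23 to 0.21. Counting intervals of the ratio excluded 1 for 4 of the 9, Lin28a, Trim71, Igf2bp1 and Igf2bp3, and did so for 22.6% of the measured coding genes. Of the 5 genes with at least 2000 reads over both libraries, 4 had such an interval, against 38.0% of the 3395 coding genes with that depth. Many genes thus differed by more than counting error between these libraries, and how far cultures of 1 group vary was not measured. The 9 genes were not drawn at random, and several share regulators and target sites, so they are not independent points.

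**Figure D3:**
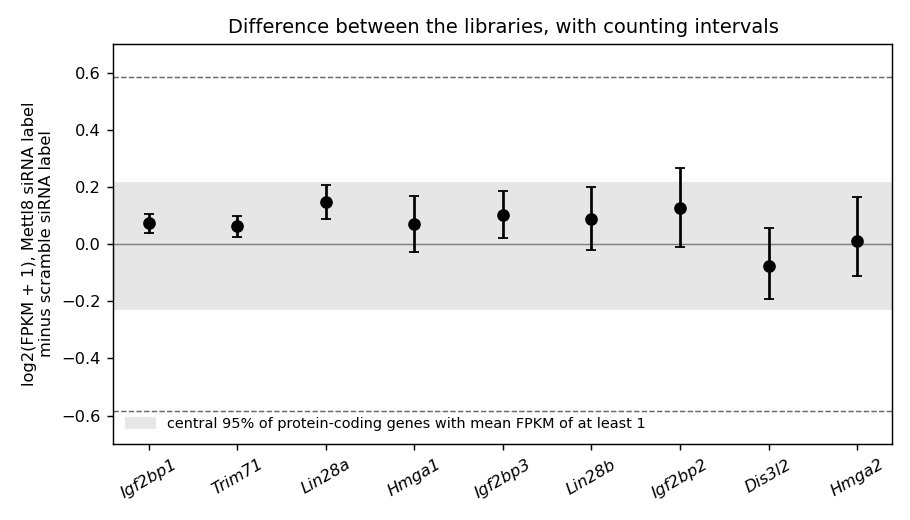
Difference in log2(FPKM + 1), library labelled Mettl8 siRNA minus library labelled scramble siRNA, with counting intervals at 95%. The grey band is the central 95% of protein-coding genes and the dashed lines mark 1.5-fold. All 9 points lie inside the band, with Lin28a highest at 0.15 and Dis3l2 lowest at -0.08. This scale compresses the differences of Dis3l2 and Hmga2, which are below 1 FPKM.

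The let-7 loci gave few reads. The labels name only total RNA and standard library protocols, so the reads are not taken here as a measure of mature let-7, and reads over a hairpin can come from the primary transcript. Over 12 hairpins there were 62 and 71 reads. Mirlet7d had 23 and 24 reads (7.85 and 8.38 FPKM), Mirlet7f-1 had 16 and 22 (6.32 and 8.89 FPKM), and Mirlet7g had 9 and 8 (3.59 and 3.27 FPKM). These were the 3 loci above 3 reads in both libraries, and each carries GGAG in its loop. Their ratios, 1.07 (0.577 to 1.98), 1.41 (0.706 to 2.87) and 0.911 (0.305 to 2.66), all hold 1. Mir98 had 3 and 8 reads (0.98 and 2.66 FPKM), a ratio of 2.71 with an interval of 0.655 to 16.0. It was the 1 locus past 1.5-fold at a mean of at least 1 FPKM, a size that 2.11% of all measured genes reached. Mirlet7a-1 had 5 and 3 reads (1.87 and 1.15 FPKM), Mirlet7e 3 and 2 (1.13 and 0.77 FPKM) and Mirlet7i 2 and 2 (0.83 and 0.85 FPKM). Mirlet7c-2 had 1 and 0, and Mirlet7f-2 had 0 and 2. Mirlet7a-2, Mirlet7b and Mirlet7c-1 were at 0 in both, which allows up to 1.10 to 1.27 FPKM at a limit of 3 reads, while the exact Poisson intervals at 95% reach 1.35 to 1.56 FPKM. Of the 5 loci with a mean of at least 1 FPKM, 3 were higher and 2 lower, beside 54.1% of all measured genes higher. Differences between the libraries at these loci were not detectable at this depth.

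**Figure D4:**
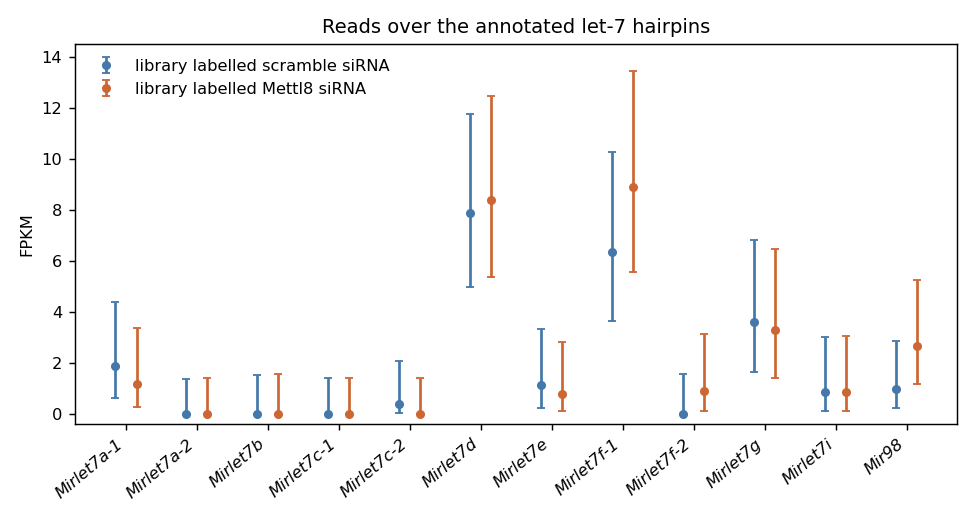
FPKM over each annotated let-7 family hairpin in the library labelled scramble siRNA (blue) and the library labelled Mettl8 siRNA (orange), with exact Poisson intervals at 95%. Mirlet7d and Mirlet7f-1 stand highest, and the intervals of the libraries overlap at every locus.

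Among genes that host let-7 hairpins, Wdr82 (let-7g) was 24.1 and 26.2 FPKM and Huwe1 (let-7f-2 and miR-98) 18.7 and 18.1 FPKM. The hosts 2610203C20Rik and Mir99ahg were at most 0.08 FPKM in either library. The hairpins of these abundant hosts had 9 and 8 reads for Mirlet7g, 0 and 2 for Mirlet7f-2 and 3 and 8 for Mir98. Of 16 measured genes of the microRNA machinery, 12 were higher and 4 lower, beside 54.1% of all measured genes higher. Their median was 0.035. Syncrip (2.63 and 3.15 FPKM) and the DICER partner gene Tarbp2 (6.36 and 7.03) were among the 3 highest in difference, and Ago1 (4.61 and 4.17), Ago2 and Khsrp (41.3 and 39.4) lowest. The cold shock domain list, Lin28a and Lin28b included, had 8 higher and 1 lower of 9, with a median of 0.088. In it, Zcchc3 (5.68 and 6.67 FPKM) and Cnbp (88.0 and 99.2), both zinc knuckle rather than cold shock domain genes, differed by more than Lin28a. Ybx1 (131.8 and 132.5), Ybx3 (49.3 and 50.3) and Ybx2 (2.78 and 2.38) had the lowest differences.

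A list of 41 further genes that are known or proposed let-7 targets had 33 measured genes, of which 21 were higher, 11 lower and 1 equal. None reached 1.5-fold after adding 1 FPKM. The median was 0.027, beside 0.013 for all measured protein-coding genes. A let-7 seed match stood in the 3′ region of 27 of the 33 and an 8mer in 11, against 14.6% and 2.99% of 20846 protein-coding genes. The list was chosen as known or proposed targets and region length was not matched, so these counts are descriptions. The D-type cyclin genes Ccnd2 and Ccnd1 led the list. Ccnd2 was 1.18 and 1.78 FPKM, a plain ratio of 1.51 (1.31 to 1.75), and Ccnd1 was 10.4 and 13.02 FPKM, or 1.251 as a ratio (1.17 to 1.34). Their kinase gene Cdk6 followed at 1.22 (1.11 to 1.34). Mycl (2.77 and 2.34 FPKM), Arid3a (3.29 and 2.95) and Cdc25a (8.94 and 8.32) had the lowest differences. The FPKM sum was 623735 and 584527 over all genes of the table, but 142874 and 144041 over protein-coding genes. Scaling the libraries to the same sum therefore follows mostly genes other than the protein-coding ones. It moved the median of all measured genes from 0.013 to 0.089 and the counts of higher genes with it. These became 30 of 33 further let-7 targets, 12 of 12 tailing and decay genes, 16 of 17 machinery genes, 10 of 11 IGF2BP-bound transcripts and 9 of 11 TRIM71 messages. In that setting 75.4% of all 13363 measured genes were higher, beside 54.1% of 13243 without it.

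**Figure D5:**
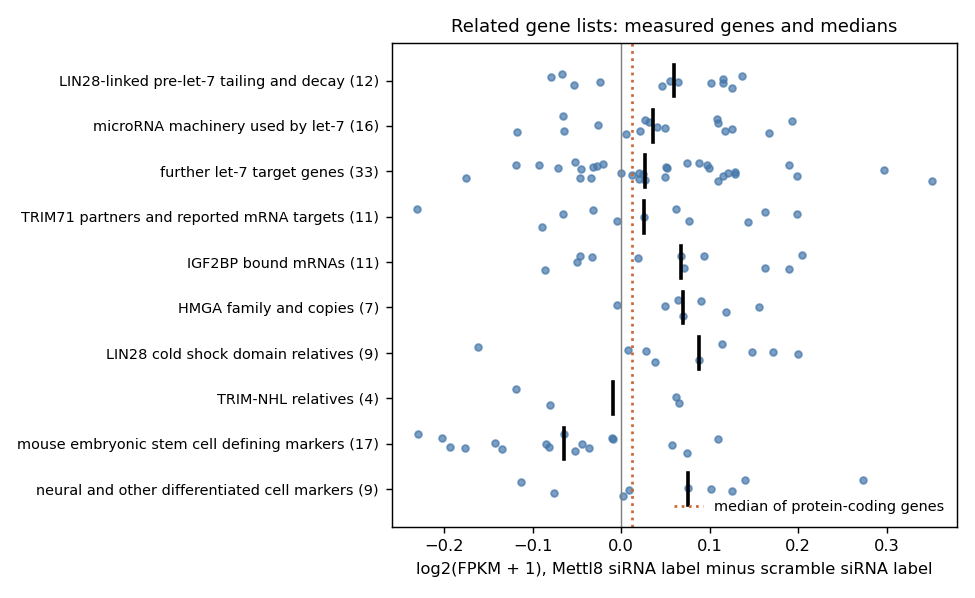
Difference in log2(FPKM + 1), library labelled Mettl8 siRNA minus library labelled scramble siRNA, for the measured genes of each related list (points, number in brackets) with the list median (black bar). The dotted line is the median of protein-coding genes, 0.013. List medians lie between -0.065 for the stem cell markers and 0.088 for the cold shock domain list. With both libraries scaled to the same FPKM sum, the stem cell marker median is 0.026 and that of all measured genes 0.089.

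The stem cell markers lay on the other side: 3 of 17 were higher, 14 were lower and the median was -0.065, beside 54.1% of all measured genes higher. With the median difference of measured genes set to 0, 3 of 17 were higher and the marker median was -0.078. With the libraries scaled to the same FPKM sum, 11 of 17 were higher, with a median of 0.026. In that setting 75.4% of all measured genes were higher, with a median of 0.089. As deposited, Pou5f1 (155.3 and 163.5 FPKM), Sall4 (50.5 and 54.5), itself on the let-7 target list, and Tfcp2l1 (51.7 and 53.8) were higher. Utf1 (43.5 and 36.9), Klf2 (52.6 and 45.5) and Klf4 (20.1 and 17.5) had the lowest differences. Differentiated cell markers had 7 of 9 measured genes higher, with a median of 0.076, and 5 of 9 when the median difference of measured genes was set to 0. Nefl was 2.60 and 3.35 FPKM, Pax6 1.06 and 1.27, Vim 17.2 and 18.9, Tubb3 17.9 and 17.9, Neurod1 2.52 and 2.34, and Krt18 3.11 and 2.80. The part of either marker list in the differences of the LIN28 and let-7 genes was not tested.

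Of the 9965 measured coding genes, 9762 have an annotated 3′ region in the transcripts used and could be grouped by their let-7 8mers. This gave medians of 0.013 for the 9440 genes with 0 matches, 0.018 for the 304 with 1 and 0.066 for the 18 with 2 or more. Lin28a, Trim71 and Igf2bp1 are among the 18. Median length of the 3′ region rose alongside, from 1028 to 2351 and 4758 bases. The seed of miR-294-3p, a microRNA abundant in mouse embryonic stem cells, gave these medians when used in the same way: 0.013 for 9432 genes, 0.030 for 318 and 0.079 for 12, with median lengths of 1026, 2670 and 5543 bases. With either seed the group with 2 or more matches had the highest median and the longest regions, and the part of region length was not tested.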

How the data were processed

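The authors deposited FPKM values rounded to 2 decimals, with 1 column per group. The submitters' processing notes name mm10, featureCounts 1.5.0-p1 and STAR 2.4.0i. Not given in the sources used here are annotation, strand setting and the handling of reads with several positions. Reads were rebuilt here from FPKM and gene length, since short genes fell on whole multiples of 1 step (100% of 3120 and 3561 values within rounding plus 0.005 reads). The denominators came to 28.5 M and 27.8 M reads, and rounding leaves up to 1.38 reads of doubt for the 9 genes. Intervals at 95% are exact Poisson and Clopper-Pearson (scipy 1.17.1), and cover counting error only, as PCR copies were not marked. Differences are log2(FPKM + 1), which understates low genes, and a gene counts as measured at a mean of at least 1 FPKM. The 1.5-fold limit on this scale is a rule of size, not a test. Positions, gene types and 3′ regions come from GENCODE M21 on GRCm38, the assembly of mm10, which holds 94.3% of the symbols, and 7 of the 9 deposited lengths equal its exon unions. Protein-coding refers to these matched symbols.

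The 9 genes and the 12 related lists were chosen with earlier results of these data known. From each list the text names every measured gene where there are 6 or fewer, otherwise the 3 highest and 3 lowest differences, and all let-7 loci above 0. Some genes this rule names are not reported here. Zcchc11, 2610203C20Rik, Mir99ahg, Igf2, Dis3 and overlapping genes were named after their values were seen, and so was the miR-294-3p grouping. Genes most alike in pattern were not named, since 2 libraries give a single difference. The steps were tested on simulated data.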

Additional observations from a re-analysis of the deposited data

How the results depend on the processing

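No paired analysis was possible because each group has 1 library, and leaving out a replicate was not possible for the same reason. All 9 differences kept their sign with a pseudocount of 0.1, although Igf2bp2 (0.18) and Dis3l2 (-0.16) then exceeded Lin28a (0.15) in size, and they kept it with each library rescaled to the same FPKM sum and, as ratios, with rebuilt reads scaled to table depth. With the median difference of measured genes set to 0, Hmga2 changed sign, leaving 7 of 9 higher. None of the 9 passed the fold limit in any setting run. The FPKM sum over all genes, 623735 and 584527, lay mostly outside protein-coding genes, which summed to 142874 and 144041. Rescaling to the same sum moved the median of measured genes from 0.013 to 0.089. It moved Lin28a, Trim71, Igf2bp1 and Igf2bp3 beyond their counting intervals, to 0.24, 0.15, 0.16 and 0.19. Under it 11 of 17 stem cell markers (median 0.026) and 2 of 2 let-7 hosts were higher, beside 75.4% of all measured genes. Over the whole table, 141 genes passed the fold limit upward and 139 downward. A pseudocount of 0.1 gave 262 upward, 246 downward, and dropping the filter gave 391 upward, 312 downward. A filter at 5 FPKM left 17 upward, 31 downward, a limit of 2-fold left 47 upward, 38 downward, and protein-coding genes alone gave 4 upward, 6 downward. Without a filter, 5 of 12 let-7 loci, 2 of 4 hosts and 19 of 26 differentiated cell markers were higher. The share over all 50508 genes was then 39.5%, with 13730 genes at 0 in both libraries. Only 9 of the 26 markers had a mean of at least 1 FPKM. At a mean of at least 5 FPKM, 5 of 9 tailing and decay genes and 3 of 3 differentiated cell markers were higher. So was the 1 TRIM-NHL gene left, Trim71 itself. The share over all 6386 genes at that filter was 59.0%. Per length of the longest complete coding transcript, a setting added after seeing the data, Igf2bp1 exceeded Igf2bp2 16.6-fold and 15.3-fold and Igf2bp3 3.74-fold and 3.64-fold, Lin28a exceeded Lin28b 8.73-fold and 8.94-fold, and Hmga1 exceeded Hmga2 39.0-fold and 39.9-fold. These values change because the deposited lengths differ from those of single transcripts. Depth limits Hmga2, Dis3l2 and the let-7 loci most.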
